A study of Mus musculus with 19 samples.

Results

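Goblet cells are secretory cells of the intestinal epithelium that fill granules with mucus, release them into the lumen, and so build the gel that keeps bacteria away from the surface. The gel is a network of the mucin MUC2, a very large glycoprotein that is folded in the endoplasmic reticulum, decorated with sugars in the Golgi, and packed with partner proteins that bind, cut, or stabilize it. The genes described here are 10 listed as genes of this cell type, although RNA from mixed cells does not show whether goblet cells alone expressed them. They were matched by symbol to 10 Ensembl gene identifiers among the 55487 genes listed in the files, and all 10 passed the filter on low counts that left 17875 genes to be tested. The products of 4 are parts of the mucus layer (*Muc2*, *Fcgbp*, *Zg16*, *Clca1*), another set are smaller secreted proteins (*Tff3*, *Spink4*, *Reg4*, *Klk1*), and the last are a folding protein of the endoplasmic reticulum (*Agr2*) and a transcription factor (*Spdef*).

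The RNA came from small intestinal crypts, the pits that hold the stem cells and the young secretory cells, of 19 C57BL/6 mice aged 10 to 16 weeks, with 1 library per mouse. The groups were 5 Nt+/+ mice and 4 Nt-/- mice, knockouts of the gene for the gut hormone neurotensin, fed chow ad libitum (AL), and fasted groups of 5 Nt+/+ and 5 Nt-/- mice that had only water for 48 hours. The study introduces its mice as Lgr5-EGFP Nt+/+ and Lgr5-EGFP Nt-/-. Each group held females and males in unequal numbers, and the fasted Nt-/- mouse numbered 5 had no sex label. Crypts were detached with EDTA from the small intestine without its distal part, so villus cells and cells other than goblet cells were present in unknown proportion. In such bulk RNA, a lower number of goblet cells and less RNA per goblet cell cannot be told apart.

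The libraries held 9059418 to 35068669 counts (median, 18541770), and every gene of the 10 had at least 177 counts in every mouse. The targeted gene, *Nts*, ranged from 4.98 to 8.59 CPM, which are counts scaled to the size of each library, in Nt+/+ mice and from 0.144 to 0.793 CPM in Nt-/- mice. In 1 fasted mouse the title reads Nt+/+ and the genotype label Nt-/-. That mouse had 5.43 CPM of *Nts* and was grouped by its title. Paneth cell markers, summed over 10 genes, made up 17680 to 44860 CPM per mouse, pancreatic markers at most 0.114 CPM, and stromal markers 7.50 to 14.7 CPM.

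Promoter windows of 300 bases, 250 before and 50 after the start site, were read from RefSeq on GRCm38.p6 for 6 of the 10 genes. The windows of 4 are shown: *Agr2*, because it fell after fasting in both genotypes, *Muc2*, because it fell in fasted Nt-/- mice, and *Klk1* and *Reg4*, because their RNA varied most closely together from mouse to mouse. Capitals mark the motifs searched on both strands, which were an E-box with the letters CAGCTG, a second E-box with CAGATG and its other strand written as CATCTG, the TATA box with TATAAA, the unfolded protein element with TGACGTG, and the SPDEF-type ETS core with CCGGAT. Each is given 5′ to 3′ on the strand of its gene, which is the plus strand for all 4.
Muc2, chr7:141690090-141690389: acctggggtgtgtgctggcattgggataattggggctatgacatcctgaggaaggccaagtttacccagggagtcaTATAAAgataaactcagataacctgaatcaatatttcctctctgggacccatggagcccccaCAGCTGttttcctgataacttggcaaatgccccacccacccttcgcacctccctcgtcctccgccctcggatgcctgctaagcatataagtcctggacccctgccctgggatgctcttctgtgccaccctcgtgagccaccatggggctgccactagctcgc
Agr2, chr12:35992675-35992974: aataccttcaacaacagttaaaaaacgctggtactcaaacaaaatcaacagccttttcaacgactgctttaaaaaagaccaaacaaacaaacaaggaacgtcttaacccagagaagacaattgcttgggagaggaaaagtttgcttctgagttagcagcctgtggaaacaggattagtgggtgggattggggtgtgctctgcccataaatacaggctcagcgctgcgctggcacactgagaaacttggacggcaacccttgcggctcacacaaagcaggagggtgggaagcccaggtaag
Klk1, chr7:44225110-44225409: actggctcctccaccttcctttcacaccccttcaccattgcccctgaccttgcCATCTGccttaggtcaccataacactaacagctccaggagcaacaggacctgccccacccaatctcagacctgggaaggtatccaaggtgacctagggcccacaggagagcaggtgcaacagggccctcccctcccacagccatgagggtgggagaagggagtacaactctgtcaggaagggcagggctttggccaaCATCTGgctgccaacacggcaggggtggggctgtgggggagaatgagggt
Reg4, chr3:98221906-98222205: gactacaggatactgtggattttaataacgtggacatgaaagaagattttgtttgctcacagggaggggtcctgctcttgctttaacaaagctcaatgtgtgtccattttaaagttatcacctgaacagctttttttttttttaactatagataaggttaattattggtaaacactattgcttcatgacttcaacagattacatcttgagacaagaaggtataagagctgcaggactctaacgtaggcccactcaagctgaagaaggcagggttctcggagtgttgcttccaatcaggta
The *Muc2* window held TATAAA at -174 and CAGCTG at -112 bases from the start site, and the *Klk1* window held CAGATG at -197 and at 1. No searched motif was in the *Agr2* or *Reg4* window. Of the remaining 2 windows, that of *Fcgbp* held CAGCTG at -208 and that of *Spdef* held TGACGTG at -201. Among 32534 mouse promoters of the same length, 16.4% held CAGCTG, 17.1% CAGATG, 13.6% TATAAA, 2.03% TGACGTG, and 6.09% CCGGAT, so a match is a description of the letters only.

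The 10 genes span a wide range of abundance. Levels between genes can be compared only per length, in the deposited TPM, which scale transcripts by length and library, and in AL Nt+/+ mice *Muc2* led with 2848 ± 806 TPM (SD, n = 5), a median rank of 36 among all genes. *Spink4*, which encodes a Kazal-type protease inhibitor, followed with 1957 ± 967 TPM and *Zg16*, which encodes a lectin that binds bacteria, with 1177 ± 415 TPM. *Fcgbp* (756 ± 129 TPM), *Agr2* (669 ± 95.5 TPM), *Tff3* (649 ± 37.7 TPM), and *Clca1* (554 ± 358 TPM) had overlapping ranges. Below them were *Reg4* at 350 ± 280.1 TPM, with a range that overlapped theirs, *Klk1* at 88.2 ± 43.2 TPM, and *Spdef* at 26.5 ± 9.17 TPM with a median rank of 4510. After fasting of Nt+/+ mice the top of this order was *Muc2* (2140 ± 344 TPM) and *Zg16* (2125 ± 364 TPM), whose ranges overlapped.

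**Figure D1:**
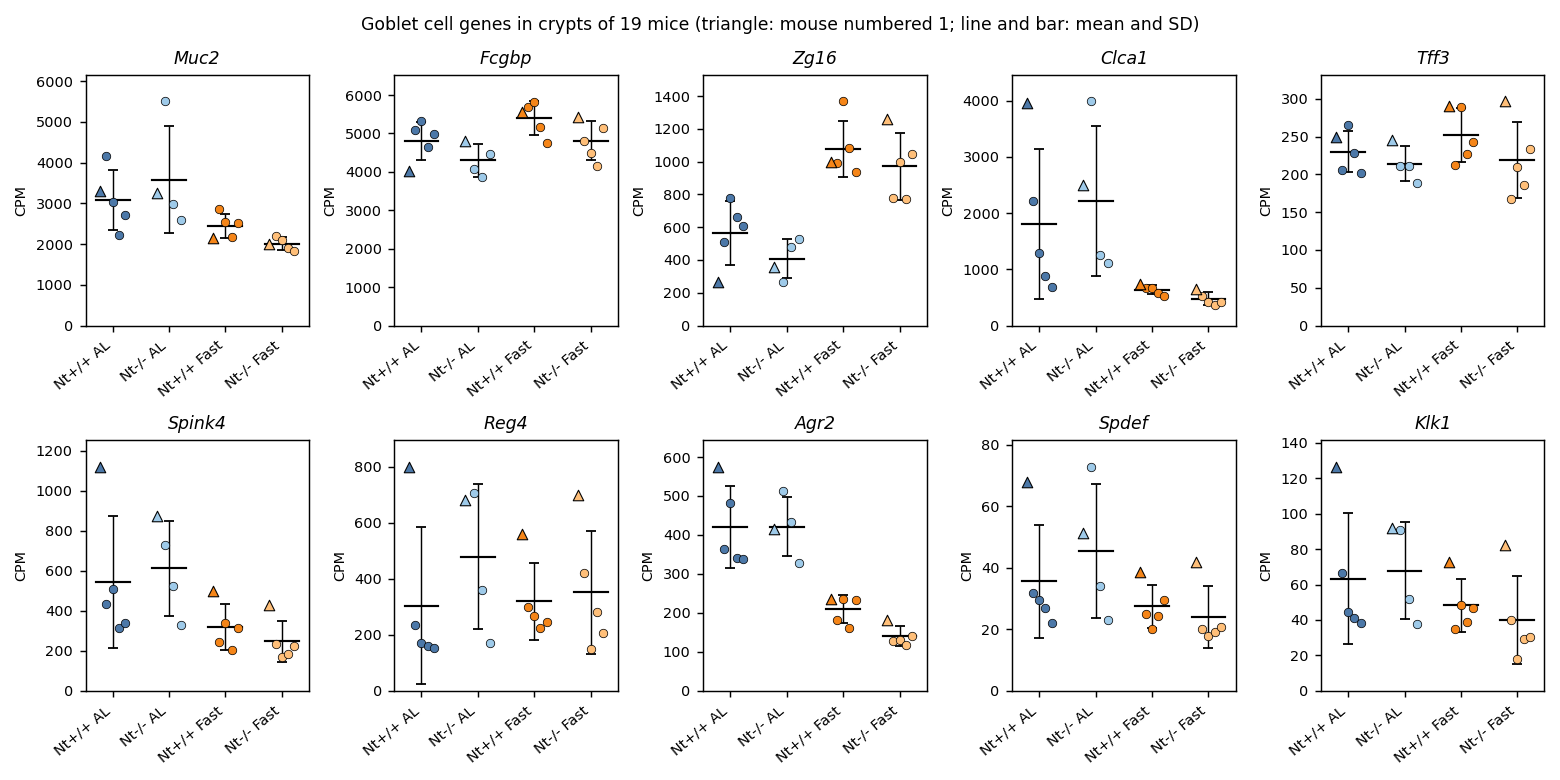
Level of each of the 10 genes in CPM (vertical axes from 0) in every mouse, by group on the horizontal axes. Points are mice, triangles are the mice numbered 1 in their group, and lines and bars are the mean and SD. Within each genotype *Agr2* lies below its AL values in every fasted mouse and *Zg16* above, and the triangles are the highest point for *Spink4* and *Klk1* in all 4 groups.

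The first question was how a 48-hour fast altered these genes in mice with neurotensin. In Nt+/+ mice, 3 of the 10 genes passed the test (the quasi-likelihood test of edgeR, adjusted over 17875 genes, at a threshold of 0.05): *Agr2* and *Clca1* fell and *Zg16* rose. Across all genes tested, 21.6% passed in this comparison, so 3 of 10 is close to the background share. The median log2 fold change of the 10 was -0.36, against -0.01 for all genes tested. In Nt-/- mice 5 of the 10 passed, with *Agr2*, *Clca1*, *Muc2*, and *Spink4* lower and *Zg16* higher, where 25.2% of all genes tested passed. The median there was -0.80, against -0.02 for all genes.

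*Agr2* encodes a protein disulfide isomerase of the endoplasmic reticulum that is required for making MUC2, and it lies on chr12:35992907-36004087 of GRCm38, the build of all coordinates here. In AL Nt+/+ mice it measured 337, 342, 364, 481, and 575 CPM, and in fasted Nt+/+ mice 162, 181, 234, 236, and 236 CPM. In AL Nt-/- mice the values were 327, 415, 433, and 512 CPM, and in fasted Nt-/- mice 117, 128, 132, 141, and 183 CPM. All fasted mice of a genotype were lower than all of its AL mice. *Agr2* fell by 1.00 (SE, 0.16) on the log2 scale in Nt+/+ mice (adjusted p = 0.000252), and by 1.59 (SE, 0.17) in Nt-/- mice (adjusted p = 2.9e-06), which corresponds to 2.00-fold and 3.01-fold lower levels.

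*Clca1* encodes a secreted protease that cleaves MUC2 and loosens the gel, and it lies on chr3:145003817-145032776. Its AL values were widely spread, at 692, 887, 1283, 2217, and 3959 CPM in Nt+/+ mice and 1113, 1255, 2508, and 3988 CPM in Nt-/- mice. After fasting the values were close together, at 529, 578, 662, 662, and 736 CPM in Nt+/+ mice and 361, 416, 418, 533, and 649 CPM in Nt-/- mice. The Nt+/+ groups overlapped, since 1 fasted mouse lay above the lowest AL mouse, and the Nt-/- groups did not. *Clca1* fell by 1.51 (SE, 0.39) on the log2 scale in Nt+/+ mice (adjusted p = 0.0093), 2.85-fold lower, and by 2.22 (SE, 0.42) in Nt-/- mice (adjusted p = 0.000674), 4.66-fold lower. Without the 4 mice numbered 1, the Nt+/+ value was -1.05 and no longer passed (adjusted p = 0.0582).

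*Zg16* was the 1 gene of the 10 that rose. It lies on the minus strand at chr7:127050156-127087328, and its product is secreted into the mucus, where it aggregates Gram-positive bacteria. AL Nt+/+ mice had 266, 510.2, 609, 659.5, and 780.1 CPM and fasted Nt+/+ mice 938, 991, 998, 1083, and 1368 CPM. AL Nt-/- mice had 267, 359.9, 479, and 526 CPM and fasted Nt-/- mice 770.2, 776, 1000.0, 1046, and 1261 CPM. In both genotypes each fasted mouse exceeded each AL mouse. The increase was 0.93 (SE, 0.23) on the log2 scale, or 1.90-fold, in Nt+/+ mice (adjusted p = 0.00648) and 1.25 (SE, 0.25), or 2.38-fold, in Nt-/- mice (adjusted p = 0.00106). The annotation places a long noncoding RNA gene and a small nuclear RNA gene within the *Zg16* span on the opposite strand, and the strand setting of the counting is not given in the sources used here.

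*Muc2*, on chr7:141690340-141754693, encodes the mucin that forms the gel itself. AL Nt+/+ mice measured 2215, 2702, 3036, 3307, and 4174 CPM and fasted Nt+/+ mice 2141, 2177, 2517, 2554, and 2855 CPM, so the groups overlapped. AL Nt-/- mice measured 2597, 2976, 3256, and 5502 CPM and fasted Nt-/- mice 1822, 1898, 2007, 2111, and 2209 CPM, with no overlap. *Muc2* fell by 0.83 (SE, 0.19) on the log2 scale in Nt-/- mice, 1.78-fold lower (adjusted p = 0.00309). The value in Nt+/+ mice was -0.33 (SE, 0.18) and did not pass (adjusted p = 0.201).

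*Spink4*, on chr4:40920052-40931395, followed the same order of groups with a wider spread. Its values were 316, 338, 435, 507, and 1119 CPM in AL Nt+/+ mice and 203, 244, 312, 338, and 499 CPM in fasted Nt+/+ mice. In Nt-/- mice they were 326, 525.5, 728, and 871 CPM when fed and 169, 184, 223, 235, and 426 CPM when fasted. In both genotypes the groups overlapped. *Spink4* fell by 1.31 (SE, 0.37) on the log2 scale in Nt-/- mice (adjusted p = 0.0126), whereas the value in Nt+/+ mice, -0.77 (SE, 0.35), did not pass (adjusted p = 0.124). Without the AL Nt-/- mouse numbered 1 the Nt-/- value was -1.09 (adjusted p = 0.0524), and without the 2 fasted Nt-/- mice with the fewest counts it was -1.16 (adjusted p = 0.0722). With mice of the same number fitted as a block, the Nt+/+ value passed, by title number (adjusted p = 0.00579) and by file number (adjusted p = 0.0137).

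The other 5 genes passed in neither genotype in the reported fit, which used all 19 mice without a block. *Fcgbp*, on chr7:28071236-28120862, encodes a large mucus protein that binds the Fc part of IgG, and its log2 fold change after fasting was 0.17 (SE, 0.11) in Nt+/+ mice and 0.16 (SE, 0.11) in Nt-/- mice. It was the steadiest of the 10, with 3854 to 5827 CPM over all 19 mice. *Tff3* (chr17:31125306-31129646, minus strand), which encodes a trefoil peptide that promotes epithelial repair, had 168 to 297 CPM, with log2 fold changes of 0.13 (SE, 0.13) and 0.03 (SE, 0.14). The 95% intervals of the fold were 0.96 to 1.31 and 0.947 to 1.32 for *Fcgbp* and 0.905 to 1.33 and 0.832 to 1.25 for *Tff3*, in Nt+/+ and Nt-/- mice respectively.

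*Spdef*, on the minus strand at chr17:27714352-27728955, encodes an ETS transcription factor that drives goblet cell maturation. It measured 22.04, 27.1, 29.5, 31.9, and 67.8 CPM in AL Nt+/+ mice and 20.2, 24.3, 24.8, 29.7, and 38.5 CPM in fasted Nt+/+ mice. In Nt-/- mice it measured 23.1, 33.99, 51.45, and 72.8 CPM when fed and 17.9, 19.1, 20.1, 20.6, and 41.9 CPM when fasted. Its log2 fold change was -0.38 (SE, 0.32; adjusted p = 0.442) in Nt+/+ mice and -0.91 (SE, 0.34; adjusted p = 0.0546) in Nt-/- mice, the latter just over the threshold. It passed in Nt-/- mice without the AL Nt+/+ mouse numbered 1 (-0.91; adjusted p = 0.024), without the AL Nt-/- mouse numbered 4 (-1.13; adjusted p = 0.0214), without the fasted Nt-/- mouse numbered 1 (-1.22; adjusted p = 0.0111), and without all 4 mice numbered 1 (-1.14; adjusted p = 0.0061). *Spdef* passed in Nt-/- mice under 9 of the 31 alternatives run, some of them with all 19 mice. These included upper quartile scaling (adjusted p = 0.0452), no filter on low counts (adjusted p = 0.0442), and a block by file number (adjusted p = 0.0115). *Klk1* (chr7:44225360-44229618), which encodes tissue kallikrein, had 18.2 to 126 CPM and log2 fold changes of -0.39 (SE, 0.38) and -0.76 (SE, 0.40) in Nt+/+ and Nt-/- mice. Without the fasted Nt-/- mouse numbered 1 the Nt-/- value of *Klk1* was -1.22 and passed (adjusted p = 0.0214), as it did without all 4 mice numbered 1 (-1.02; adjusted p = 0.0146). With all 19 mice *Klk1* passed in Nt-/- mice with a block by title number (adjusted p = 0.0148) or file number (adjusted p = 0.0182). *Reg4* (chr3:98222156-98236748), which encodes a secreted lectin-like protein, had log2 fold changes of 0.07 (SE, 0.49) and -0.45 (SE, 0.52) in Nt+/+ and Nt-/- mice. *Reg4* had the largest standard errors of the 10, with 148 to 801 CPM over the 19 mice. *Klk1* belongs to a family of near-identical neighbours and overlaps a pseudogene on the opposite strand, so its counts are uncertain.

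The groups were also compared by their ranges alone. In Nt+/+ mice 2 of the 10 genes had ranges that did not overlap between AL and fasted mice, *Agr2* and *Zg16*, where 14.6% of all genes tested had such ranges. In Nt-/- mice there were 4, *Agr2*, *Clca1*, and *Muc2* below and *Zg16* above, where the share of all genes tested was 21.3%.

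Markers of other cell types were measured in the same libraries. Of 10 enterocyte markers, 7 rose and none fell in Nt+/+ mice, and 9 rose and none fell in Nt-/- mice. These shares of 70% and 90% stand beside 21.6% and 25.2% of all genes tested. None of the 10 was at 0 in any mouse. Their summed level ranged from 4314 to 8586 CPM in AL and from 8079 to 16550 CPM in fasted Nt+/+ mice, and from 6312 to 9302 CPM in AL and 14530 to 19240 CPM in fasted Nt-/- mice. Of 10 Paneth markers, 1 fell in Nt+/+ mice and 2 fell in Nt-/- mice, shares of 10% and 20% that lie below those of all genes tested. Among 5 stem cell markers, *Olfm4* fell in both genotypes (log2 fold change, -0.63 and -0.92), *Rnf43* rose in Nt+/+ mice (0.47), and *Smoc2* fell in Nt-/- mice (-0.49). The share that passed was 40% in each genotype. *Lgr5* and *Ascl2* did not pass. Their AL and fasted means were 27.6 and 33.8 CPM for *Lgr5* and 5.32 and 8.22 CPM for *Ascl2* in Nt+/+ mice. In Nt-/- mice the means were 31.1 and 30.5 CPM for *Lgr5* and 5.86 and 6.33 CPM for *Ascl2*. Summed over its 10 members, the goblet list ranged from 9528 to 14500 CPM and from 9857 to 11610 CPM in AL and fasted Nt+/+ mice, and from 9769 to 16150 CPM and from 8006 to 11090 CPM in AL and fasted Nt-/- mice. The part of these shifts in the values of the 10 genes was not tested.

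**Figure D2:**
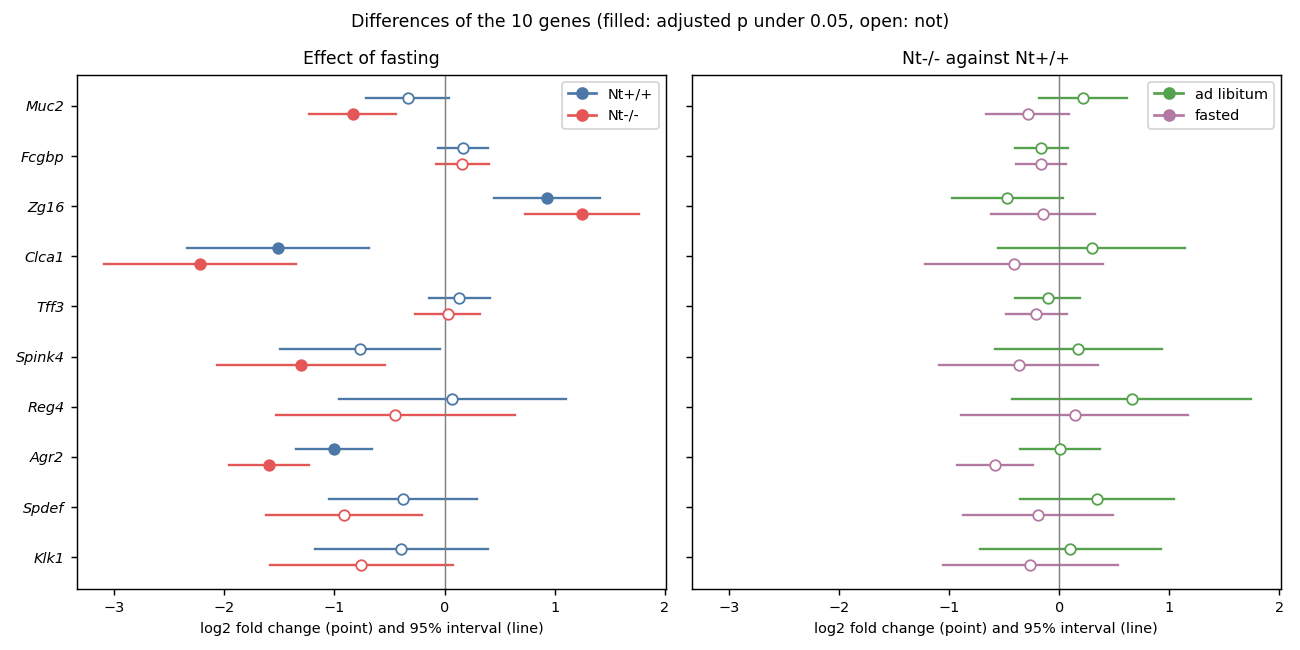
Log2 fold change (horizontal axes) of each of the 10 genes with its 95% interval, after fasting in each genotype (left) and between genotypes in each diet (right). Filled points passed the test and open points did not. After fasting 3 genes are filled for Nt+/+ mice and 5 for Nt-/- mice, and on the right every point is open.

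The second question was whether loss of neurotensin altered the goblet cell genes, a cell type that the study also examined by staining of sections. The sections came from the proximal and the distal small intestine, and the distal part was not sampled for RNA. No gene of the 10 passed in AL mice, where 0.00559% of all genes tested passed, and none passed in fasted mice, where 0.00559% did. Averaged over both diets the count was also 0, with 0.0224% of all genes passing. By unadjusted p under 0.05 the count was 0 in AL mice, 1 in fasted mice, and 1 in the average, *Agr2* in the last 2, where 299, 1634, and 1211 of the 17875 genes tested had such a p, and DESeq2's Wald test called 0 in all 3 comparisons. Of the 10 log2 differences 7 were above 0 in AL mice (median, 0.14; all genes, -0.0011) and 9 below 0 in fasted mice (median, -0.24; all genes, -0.01). None of the 10 had ranges that did not overlap between the genotypes in either diet, where 0.694% of all genes tested in AL mice and 1.56% in fasted mice did.

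*Agr2* came nearest. Its log2 difference, Nt-/- minus Nt+/+, was 0.01 (SE, 0.17) in AL mice and -0.58 (SE, 0.16) in fasted mice, where the unadjusted p of 0.00205 became 0.27 after adjustment over all genes, and 0.0634 to 0.798 under the alternatives run. The 95% interval of the fold in fasted mice was 0.526 to 0.847. The highest fasted Nt-/- mouse, at 183 CPM, lay above 2 fasted Nt+/+ mice. *Zg16* was 0.722-fold in AL Nt-/- mice relative to AL Nt+/+ mice, with an interval of 0.508 to 1.03 (adjusted p = 1).

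The log2 differences of the other genes are given for AL and fasted mice in that order. Among the mucus layer genes, *Muc2* had 0.21 (SE, 0.19) and -0.29 (SE, 0.18), *Fcgbp* -0.16 (SE, 0.11) and -0.17 (SE, 0.11), *Clca1* 0.29 (SE, 0.41) and -0.41 (SE, 0.39), and *Zg16* -0.47 (SE, 0.24) and -0.15 (SE, 0.23). Among the smaller secreted proteins, *Tff3* had -0.10 (SE, 0.14) and -0.21 (SE, 0.13), *Spink4* 0.17 (SE, 0.36) and -0.37 (SE, 0.35), *Klk1* 0.10 (SE, 0.39) and -0.26 (SE, 0.38), and *Reg4* 0.66 (SE, 0.52) and 0.14 (SE, 0.49). *Spdef* had 0.35 (SE, 0.33) and -0.19 (SE, 0.33). None of these passed, with an edgeR adjusted p of 1 for all 10 genes in AL mice and of 0.27 to 0.967 in fasted mice. Averaged over both diets, the differences were -0.29 (SE, 0.12) for *Agr2*, -0.31 (SE, 0.17) for *Zg16*, -0.16 (SE, 0.08) for *Fcgbp*, -0.16 (SE, 0.10) for *Tff3*, and 0.40 (SE, 0.36) for *Reg4*, and those of *Muc2*, *Clca1*, *Spink4*, *Klk1*, and *Spdef* lay between -0.10 and 0.08.

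The intervals also bound what these mice could have shown. In AL mice the upper bound of the fold was under 2 for 7 of the 10 genes, the exceptions being *Clca1*, *Spdef*, and *Reg4*, and the lower bound was above 0.5 for all 10. In fasted mice the upper bound was under 2 for 9 genes, with *Reg4* as the exception, and the lower bound was above 0.5 for 7. The narrowest interval in AL mice was that of *Fcgbp*, 0.757 to 1.06, and the widest that of *Reg4*, 0.745 to 3.35. A miss of the threshold therefore does not show that the genotypes were alike.

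The third question was whether fasting acted differently with and without neurotensin, which the difference of the fasting effects tests directly. No gene of the 10 passed (0% of all genes tested passed), and DESeq2 called 0. By unadjusted p under 0.05 there was 1, *Agr2*, whose difference of effects, Nt-/- minus Nt+/+, was -0.59 (SE, 0.24) on the log2 scale with an adjusted p of 1. For *Muc2*, called in Nt-/- mice only, the difference of effects was -0.50 (SE, 0.26), and for *Spink4* -0.54 (SE, 0.50), both with an adjusted p of 1. The others had -0.71 (SE, 0.56) for *Clca1*, -0.54 (SE, 0.47) for *Spdef*, -0.52 (SE, 0.72) for *Reg4*, -0.36 (SE, 0.55) for *Klk1*, -0.10 (SE, 0.19) for *Tff3*, and -0.01 (SE, 0.16) for *Fcgbp*. The fasting effects of the 2 genotypes are thus not shown to differ for any of the 10. The difference was below 0 for 9 of the 10 genes (median, -0.51) and for 9295 of the 17875 genes tested (median, -0.01), and *Zg16*, at 0.32 (SE, 0.33), was the exception.

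The 10 genes were next set beside the machinery that makes mucus, and paired values are in the order Nt+/+ and Nt-/- for this and the next lists. Of 20 tested genes that add or extend sugars on mucins, 7 fell and 1 rose after fasting in Nt+/+ mice and 6 fell in Nt-/- mice. These are shares of 40% and 30%, where 21.6% and 25.2% of all genes tested passed, so the Nt-/- share is near the background. *Galnt3*, one of the enzymes that start these sugar chains, fell by 0.44 (SE, 0.10) and 0.63 (SE, 0.11) on the log2 scale, and *B4galnt2*, which caps them, by 0.40 (SE, 0.09) and 0.51 (SE, 0.09). *C1galt1*, the core 1 synthase, fell by 0.51 (SE, 0.13) and 0.43 (SE, 0.14), and *B3gnt3*, a chain-extending enzyme, by 0.46 (SE, 0.10) in Nt+/+ mice. *C1galt1c1*, the chaperone of *C1galt1*, fell by 0.58 (SE, 0.14) and *Galnt4* by 0.42 (SE, 0.10) in Nt-/- mice. *Fut2*, a fucosyltransferase, did not pass (-1.21 with SE 0.52 and -1.04 with SE 0.56).

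Of 6 other mucins tested, 1 passed, a share of 16.7% in each genotype that lies below those of all genes tested. *Muc4*, a membrane mucin, fell by 0.69 (SE, 0.13) in Nt+/+ mice (adjusted p = 0.000656) and by 0.90 (SE, 0.13) in Nt-/- mice (adjusted p = 7.04e-05). Its levels were 325 ± 49.1 CPM (SD, n = 5) and 201 ± 36.7 CPM (n = 5) in AL and fasted Nt+/+ mice, and 259.7 ± 11.99 CPM (n = 4) and 139 ± 22.7 CPM (n = 5) in AL and fasted Nt-/- mice. *Muc13* (1526 to 1833 CPM across the group means) and *Muc3* did not pass (log2 fold changes between -0.20 and 0.10).

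Among 22 genes of protein folding, export, and granule release, 7 fell and 1 rose in Nt+/+ mice and 9 fell and 1 rose in Nt-/- mice. The shares were 36.4% and 45.5%, where 21.6% and 25.2% of all genes tested passed. On the log2 scale *Fkbp11*, a prolyl isomerase of the endoplasmic reticulum, fell by 0.82 (SE, 0.17) and 1.82 (SE, 0.19), *Pdia5* by 0.71 (SE, 0.18) and 1.11 (SE, 0.19), and *Pdia6* by 0.55 (SE, 0.13) and 0.64 (SE, 0.14). *Creld2* fell by 0.81 (SE, 0.16) and 0.70 (SE, 0.17). *Sec24d*, a coat protein of export vesicles, rose by 0.57 (SE, 0.13) and 0.67 (SE, 0.14). *Ern2*, a stress sensor of mucus cells, did not pass (0.19 and -0.33). The median log2 fold change of the list was -0.09 in Nt+/+ and -0.32 in Nt-/- mice.

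Of 10 transcription factors listed for the secretory lineage and its control, *Klf4* rose in both genotypes (log2 fold change, 0.46 with SE 0.14, and 0.60 with SE 0.15). *Xbp1* rose in Nt+/+ mice (0.31, SE 0.10). *Creb3l1* fell in Nt-/- mice (-0.74, SE 0.24). The share of the list that passed was 20% in each genotype, below that of all genes tested. *Hes1* was also on the list, entered this share, and did not pass. *Atoh1*, the factor that commits cells to the secretory lineage, did not pass (-0.09 with SE 0.28 and -0.56 with SE 0.30), nor did *Foxa3* (-0.15 and -0.63), *Creb3l4* (-0.43 and -0.62), or *Gfi1* (-0.08 and -0.23).

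Of 12 tested genes on the list of other goblet cell products, *Guca2b*, which encodes uroguanylin, rose by 1.34 (SE, 0.22) and 1.61 (SE, 0.24) on the log2 scale. *Ramp1* rose by 0.81 (SE, 0.23) in Nt+/+ mice. A place on the list does not show that goblet cells made the RNA, since other cells were present. *Pla2g10*, a secreted phospholipase, fell by 0.76 (SE, 0.23) in Nt+/+ mice, and *Tpsg1* by 0.97 (SE, 0.28) and *Slc12a8* by 0.49 (SE, 0.17) in Nt-/- mice. *Retnlb*, which encodes an antibacterial goblet cell protein, ranged from 0.0967 to 18.0 CPM in AL and 0.0560 to 1.22 CPM in fasted Nt+/+ mice, and from 0.241 to 8.55 CPM in AL and 0 to 1.01 CPM in fasted Nt-/- mice. Its log2 fold changes, -3.59 (SE, 1.296; adjusted p = 0.0537) and -3.20 (SE, 1.38; adjusted p = 0.0972), were the lowest of the list and did not pass. *Ang4* (-0.09 and -0.49) and *Guca2a* (0.33 and 0.15) did not pass. *Ccn3* was too low to be tested. The share of the 12 tested products that passed was 25% in each genotype, near that of all genes tested. In the genotype comparisons and in the difference of fasting effects, edgeR called 0 of the 70 tested genes of these 5 lists, with 3 in AL mice, 8 in fasted mice, 7 in the average, and 3 in the difference of effects at an unadjusted p under 0.05. DESeq2 called 1 in fasted mice and 1 in the average.

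**Figure D3:**
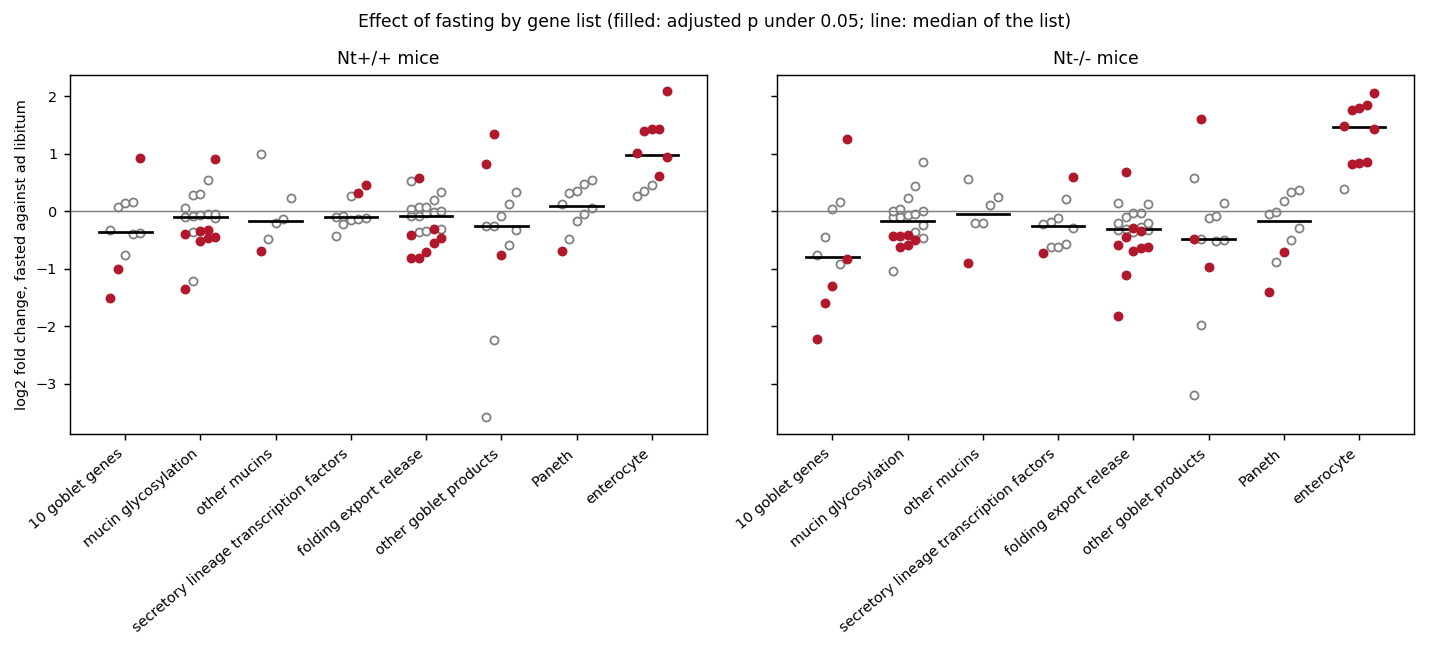
Log2 fold change after fasting (vertical axis) of the tested genes of each list (horizontal axis), in Nt+/+ mice (left) and Nt-/- mice (right). Red points passed the test, open points did not, and bars are list medians, which for the 10 goblet genes are -0.36 and -0.80 and for the enterocyte markers 0.97 and 1.46.

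How the 10 genes vary from mouse to mouse was described with each mouse's deviation from its group mean of log2 CPM, so that diet and genotype do not enter. All values come from the same 19 libraries, and genes from 1 library share its depth and cell makeup. Over the 45 pairs of genes the median Pearson's r was 0.42, with 21 pairs above 0.5. The highest was 0.95 for *Klk1* and *Reg4*, and the lowest was -0.68 for *Clca1* and *Zg16*.

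The set divided by this measure. *Spink4* (r = 0.94), *Klk1* (0.94), *Spdef* (0.91), *Reg4* (0.89), *Agr2* (0.82), and *Clca1* (0.81) followed the mean of the other 9 genes closely, and *Tff3* (0.59) and *Muc2* (0.42) less so. *Fcgbp* (0.06) did not follow it and *Zg16* ran opposite to it (-0.54). Against the mean of the 10 enterocyte markers, *Zg16* had an r of 0.61 and *Fcgbp* of 0.42, while the other 8 ranged from -0.80 for *Spdef* to -0.34 for *Tff3*. This was not particular to enterocytes. With the mean of the immune markers *Zg16* had 0.57 and *Fcgbp* 0.51, and with that of the stromal markers they had 0.68 and 0.16. High values were not limited to the set itself. *Tff3* had an r of 0.83 with the mean of the Paneth markers, and with the mean of the tuft cell markers *Reg4* had 0.89, *Klk1* 0.86, and *Spink4* 0.80. The Pearson's r of *Muc2* with the stem cell markers was -0.65.

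**Figure D4:**
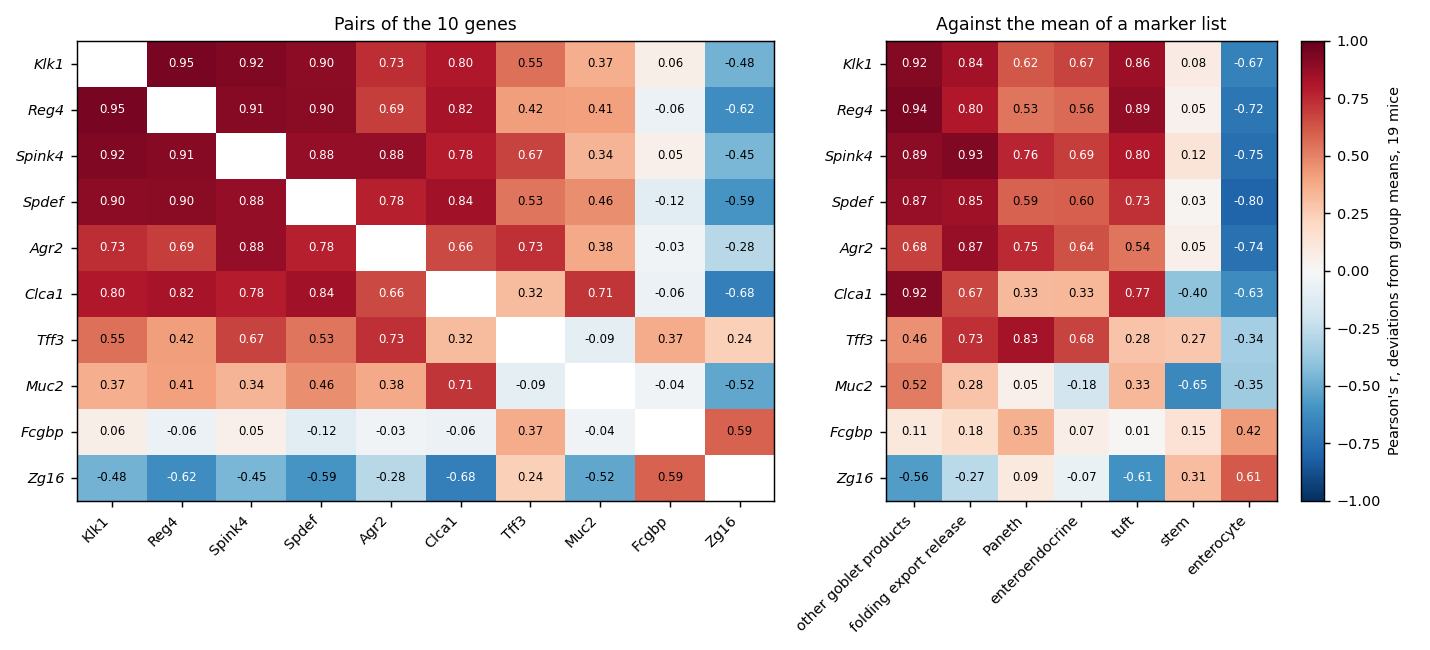
Pearson's r over 19 mice of deviations from group means in log2 CPM, between pairs of the 10 genes (left) and between each gene and the mean of 7 marker lists (right; the first 2 lists are goblet and secretory genes). The genes from *Klk1* to *Clca1* are positive with one another, from 0.66 to 0.95, and the *Zg16* row is mostly negative.

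Genes outside the set with the pattern most like the mean of the 10 were *Pnliprp2* (r = 0.96), a lipase on the Paneth list, *Atp2a3* (0.96), an endoplasmic reticulum calcium pump, *Clps* (0.95), also on the Paneth list, and *Ang4* (0.95), a microbicidal ribonuclease. *Reep5* (0.95), the receptor gene *Kit* (0.94), *C1qtnf6* (0.94), *Tspan14* (0.93), the keratin gene *Krt18* (0.93), and *Slc2a10* (0.93) followed. Without the 2 mice farthest from the median, these r ranged from 0.864 to 0.95. For comparison, the median over the 17865 other genes was -0.01. For *Zg16* alone the nearest genes were *Capn2* (0.885), *P2ry4* (0.885), and *Ocm* (0.873), and for *Fcgbp* they were *Foxo3* (0.843), *Rab11fip1* (0.833), and *Rab17* (0.819). These last 2 sets were looked up after the values of the 10 genes were seen.

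One numbering in the labels moved with the spread. The mouse numbered 1, a female in every group, was the highest of its group in 26 of 40 combinations of gene and group, in all 4 groups for *Spink4* and *Klk1* and in none for *Muc2*. Many of these genes vary together, so the 40 combinations are not independent, and the same count was not made over all genes. For *Reg4* these mice had 801, 682, 561, and 700.3 CPM, where the lowest mouse of the same group had 151, 170.4, 224, and 148 CPM, in the order AL Nt+/+, AL Nt-/-, fasted Nt+/+, and fasted Nt-/-. What the number stands for is not given in the sources used here. Without all 4, *Agr2* and *Zg16* were called in Nt+/+ mice and 7 of the 10 genes in Nt-/- mice. The share of all genes that passed without these mice is not given here, so these counts have no background beside them. Over all alternatives, calls among all genes tested ranged from 3022 to 5484 in Nt+/+ and from 3442 to 5672 in Nt-/- mice.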

How the data were processed

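RNA was extracted from crypts of 19 mice, and ribosomal RNA-depleted libraries were read as single 100-base reads. Per the labels, reads were trimmed with Trimmomatic 0.39, and the authors mapped them to Ensembl GRCm38 (release 100) transcripts with RSEM (version not given in the sources used here) and deposited, per gene, the expected count, not normalized, and TPM, which is scaled per library and per gene length. Expected counts were rounded to whole numbers. RSEM's model divides reads that fit several genes, and its effect on *Klk1*, which has close paralogs, was not measured.

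Gene symbols and coordinates are from GENCODE M21 on GRCm38. Groups were taken from titles. edgeR 4.0.16 in R 4.3.3 was run with TMM scaling, filterByExpr, 1 coefficient per group over all mice (15 residual degrees of freedom; biological coefficient of variation, 18.9%), the quasi-likelihood test, and Benjamini-Hochberg adjustment over 17875 genes at 0.05. Each SE is the size of the log2 fold change divided by the root of F, and 95% intervals use the t quantile. CPM use TMM library sizes, and log2 CPM a prior count of 2. Each mouse is a separate animal. The paper states that control mice were littermates matched for sex and age, and the reported fit holds no term for litter. The fit was tested on simulated data. DESeq2 1.42.0, upper quartile scaling, 2 other filters, a replicate block, sex, the other label of the disagreeing mouse, and leaving out mice were run as alternatives. No pair of files was identical.

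The 10 genes and the gene lists were chosen with earlier results of these data known. All 10 genes were named in every comparison, from each other list up to 4 genes of smallest p plus textbook goblet genes, and the 10 genes most like the mean of the set. The further lists held markers of Paneth, enteroendocrine, tuft, enterocyte, stem, Brunner gland and gastric, pancreatic, immune, and stromal cells. In the lists whose calls after fasting are not given above, 1 of 6 tested enteroendocrine markers passed in Nt+/+ and 2 of 6 in Nt-/- mice. None of the tested tuft (5), immune (9), stromal (6), and Brunner gland and gastric (2) markers passed (by unadjusted p under 0.05, 1 immune marker in Nt-/- mice).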

Additional observations from a re-analysis of the deposited data

Results flagged for a closer look

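In groups of 4 or 5 mice, the gap between the highest or lowest mouse and the next was compared with the range of the group for each of the 10 goblet cell genes. Of 40 combinations of gene and group, 6 had a mouse far from the others. For normally distributed values chance alone flags about 1 in 20 groups, and whether that rate holds for CPM of these genes was not tested. In each of the 6 the mouse was the one numbered 1. In AL Nt+/+ mice it had 67.79 CPM of *Spdef* (next highest, 31.9 CPM), 1119 CPM of *Spink4* (next, 507 CPM), and 800.6 CPM of *Reg4* (next, 236 CPM). In fasted Nt-/- mice it had 41.92 CPM of *Spdef* (next, 20.6 CPM) and 426.4 CPM of *Spink4* (next, 235 CPM). In fasted Nt+/+ mice it had 560.7 CPM of *Reg4* (next, 299 CPM). These 3 genes vary together, so the 6 are not independent.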

How the results depend on the processing

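The number of the 10 genes called stayed within 1.5 times of the reported one under all alternatives, at 2 to 4 in Nt+/+ and 4 to 7 in Nt-/- mice after fasting and 0 in both genotype comparisons, their average and the difference of fasting effects. Of 1840 single values under an alternative, 0 reversed, 3 were lost (given in the report) and 15 were gained. *Spdef* in Nt-/- mice was gained under 9, among them upper quartile scaling (adjusted p = 0.0452) and no filter on low counts (0.0442). Of 1577 values called in neither, 61 had the other sign. Mice with the same number in their titles did not deviate together throughout (27 pairs; mean r, 0.18; lowest, -0.13; 19 over 0.1). By the number in the file names the 27 pairs had a mean r of 0.23, with a lowest of 0.07 and 24 over 0.1. The mean for different numbers was -0.06, a hint that mice of 1 number vary together. The paper states that the ad libitum controls were littermates matched for sex and age, but no label tells which mice were littermates. Not every pair was over 0.1 either, so neither number was taken as pairing in the reported fit, and a block by number was run as an alternative. Mice with the same file number were also of the same sex wherever sex was labelled, so sex did not vary within a number. Each sex held more than 1 file number, so numbers can be compared within a sex. The part of sex in the likeness of same-numbered mice was not tested. With the replicate block by title number, 4 of the 10 genes were called in Nt+/+ mice and 7 in Nt-/- mice, *Spink4* in Nt+/+ mice being gained (-0.67; adjusted p = 0.00579) and *Spdef* (0.00812) and *Klk1* (0.0148) in Nt-/- mice, and with that by file number also 4 and 7 (*Spink4* 0.0137, *Spdef* 0.0115, *Klk1* 0.0182). Over all genes tested, calls after fasting ranged from 3022 to 5484 in Nt+/+ mice under the alternatives, against 3862 in the reported fit. In Nt-/- mice they ranged from 3442 to 5672, against 4499, and the file number block gave the highest count in both genotypes. Over all genes tested, DESeq2 called 98 in fasted mice between genotypes and 53 averaged over diets where edgeR called 1 and 4. The other mucus lists had 14 calls in Nt-/- mice without the 2 mice with the fewest counts, and 35 with the file number block, against 22. Each of the 10 genes had at least 177 counts in every mouse.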
